A study of Mus musculus with 17 samples.

Results

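Cluster 2 is one of the 9 groups of cells into which single-cell RNA sequencing (scRNA-seq) of lesioned mouse brain was divided, and its working label is astrocyte and mixed neuroectodermal cells. It was taken as all genes in the deposited mean-expression columns of cluster 2, one for the 6-OHDA group and one for the 6-OHDA+NDST3 group. Of 26624 listed genes, 9817 were above 0.1 natural log units in cluster 2 in at least 1 group and are called detected here, against 5833 to 7645 in the other 8 clusters. All mice were wild-type females of the ICR strain. The sham group was not lesioned. The 6-OHDA group received the neurotoxin 6-hydroxydopamine on one side, at 10 µg per µl into the substantia nigra at 8 weeks of age, and then saline. The 6-OHDA+NDST3 group received the same lesion and, 5 days later, 2 µl of an adeno-associated virus (AAV) carrying human NDST3 under the CMV promoter at the same site, so no lesioned group of these tables received an empty vector and the promoter was not restricted to a cell type. scRNA-seq has 1 library per lesioned group, and a sham library for scRNA-seq was not analysed here. Bulk RNA sequencing (RNA-seq) of brain has 2 sham, 1 6-OHDA and 2 6-OHDA+NDST3 libraries.

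Each scRNA-seq value is the mean over the cells of a cluster of the natural log of 1 plus the count per 10000 transcripts, so the values are levels on a log scale and groups are compared as differences in natural log units, not as folds. With 1 library per group there is no replicate error, and no test was made on these values. The number of cells and the depth behind each mean are unknown, so no interval can be given. A mean over a mixed cluster cannot separate fewer cells of a type from less RNA per cell, and in bulk tissue these cannot be told apart either.

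Astrocytes take up glutamate and potassium around synapses, are joined by gap junctions and supply lipids and lactate to neurons. Ependymal cells line the ventricles and move cerebrospinal fluid with motile cilia, whose beat depends on axonemal dyneins, radial spokes and ciliary assembly factors. The choroid plexus epithelium secretes that fluid, and oligodendrocytes make myelin. All of these cells, and neurons, derive from the neural plate, whereas microglia, lymphocytes and endothelium do not. In the substantia nigra, astrocytes react to the loss of dopamine neurons after 6-OHDA with a higher level of glial fibrillary acidic protein (Gfap).

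Astrocyte markers stood in cluster 2 beside those of other cell types. All 7 markers given with the label were detected in cluster 2: Sox2, a transcription factor of neural stem cells and glia, was at 0.707 and 0.728 in the 6-OHDA and 6-OHDA+NDST3 groups, and the calcium-binding protein S100b at 0.923 and 0.865. The glutamate transporter Slc1a2 was at 0.509 and 0.627, the brain metallothionein Mt3 at 1.73 and 1.64, the chaperone and lipoprotein clusterin (Clu) at 1.57 and 1.62 and the transcription factor Npas3 at 1.36 and 1.45. A gene is called highest in cluster 2 throughout if the lower of its 2 levels there exceeded its level in every other cluster in either group. Of these 7 markers, only Ndrg2 did not meet this rule: it was at 0.813 and 0.965 here and at 0.752 and 0.8496 in cluster 5, so cluster 2 was above cluster 5 within each group but not across groups. Over a wider list, 20 of 20 astrocyte markers were detected and 17 were highest in cluster 2 by this rule. Their median level was 0.558 in the 6-OHDA group and 0.607 in the 6-OHDA+NDST3 group. 2 of the most used astrocyte markers were low: Gfap was at 0.0725 and 0.127, and the folate enzyme Aldh1l1 at 0.0763 and 0.169. The water channel Aqp4 was at 0.701 and 0.688 and the gap junction protein Gja1 at 0.844 and 0.862. The share of all genes that were highest in cluster 2 under the rule above was not worked out. Under a looser rule, by the higher of the 2 levels, 8669 of 26624 genes were highest in cluster 2. List counts near that share do not set a list apart.

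Markers of other neuroectodermal types were present in the same means. Of 12 ependymal markers, 10 had their highest level here; the list median was 0.901 in the 6-OHDA group and 0.801 in the 6-OHDA+NDST3 group; the exceptions were Rarres2 and Hdc. Foxj1, the transcription factor that turns on motile ciliogenesis, was at 0.646 and 0.646. All 12 choroid plexus markers were highest here, among them transthyretin (Ttr) at 0.941 and 0.882, the folate receptor Folr1 at 0.479 and 0.510 and Enpp2, which makes lysophosphatidic acid, at 1.06 and 1.01. Of 16 oligodendrocyte markers, 12 were highest here, with the tight junction protein Cldn11 at 0.445 and 0.594, while Mbp, Cnp, Mal and Trf were higher in another cluster. Of 9 markers of oligodendrocyte precursors, 7 were highest here, led by the receptor phosphatase Ptprz1 at 0.814 and 0.786. Of 16 neuron markers, 9 were highest here and 5 were detected, and the highest level in the list was 0.807 and 0.709. The list median was only 0.0452 and 0.0399, and the GABA enzyme Gad2 was listed at 0 in both groups. Of the 10 dopaminergic markers, 3 were detected (Nr4a2, Aldh1a1 and Lmx1b) and 4 were highest here. In the same list, the dopamine transporter Slc6a3 and the transcription factor Pitx3 were at 0 in both groups. Tyrosine hydroxylase (Th) was at 0.00104 and 0.00283. The set is therefore called cluster 2 below and given no single cell type, since the deposited means do not show which cells carried which gene.

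**Figure D1:**
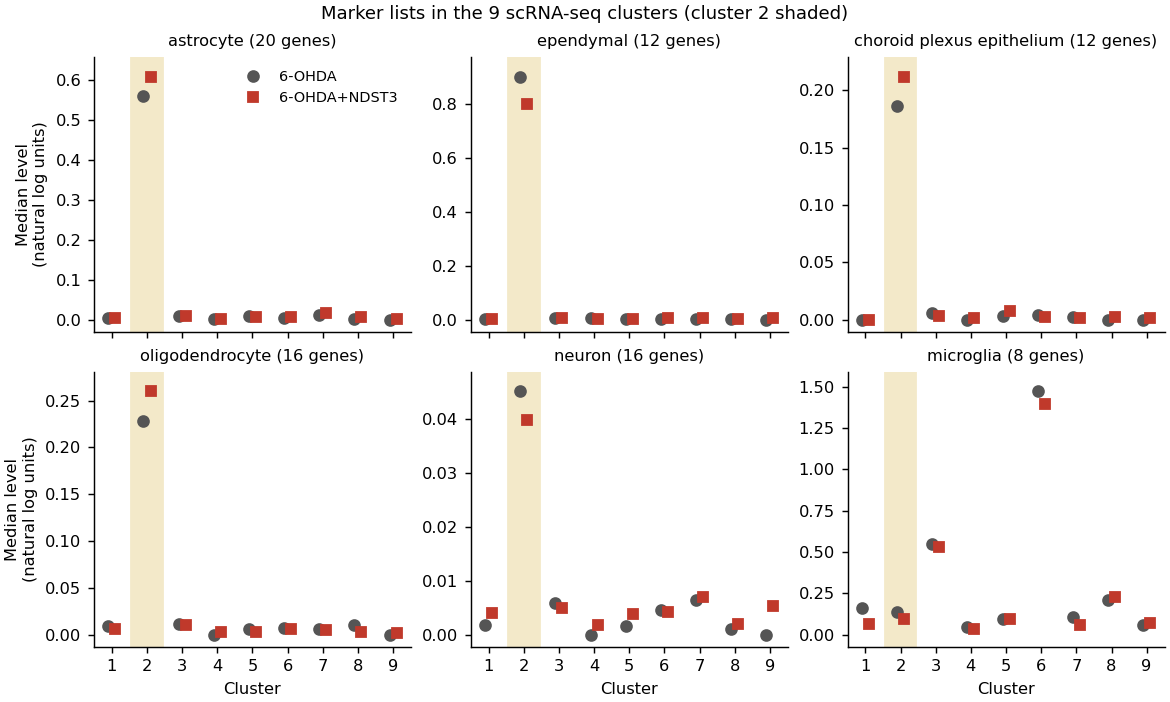
Median level of 6 marker lists in the 9 scRNA-seq clusters, in natural log units; each panel has its own vertical scale. Grey circles are the 6-OHDA library, red squares the 6-OHDA+NDST3 library, and cluster 2 is shaded. The astrocyte, ependymal, choroid plexus and oligodendrocyte medians in cluster 2 lie far above those of the other 8 clusters, the neuron medians are also highest in cluster 2 but stay below 0.1, and the microglia medians are highest in cluster 6.

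Most other lineages were low in cluster 2 but not absent, and fibroblast markers were not low. None of the 8 microglia markers was highest here, and their summed level was 2.09 and 1.33, against 13.7 and 12.8 in cluster 6, where they were highest. The 7 endothelial markers summed to 1.05 and 0.678, and the 5 erythroid genes to 1.05 and 0.563, although red cells were lysed before loading. The 8 mural markers summed to 0.488 and 0.406 and the 7 markers of olfactory ensheathing or Schwann cells to 1.25 and 1.45. The 7 fibroblast markers summed to 1.58 and 1.64, with 4 of these highest here. Their median was 0.215 and 0.227, against 0.187 and 0.212 for the choroid plexus list and 0.229 and 0.260 for the oligodendrocyte list. Summed levels of the neutrophil, T cell and B cell lists were between 0.117 and 0.447 in either group, and the highest of these was that of the T cell list with NDST3. Of the 10 neural progenitor markers, only Nes was detected, at 0.175 and 0.189, below cluster 7.

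A gene was said to lead cluster 2 if its level there, in both groups, was at least 0.25 natural log units above its level in every other cluster in either group. By this rule 641 genes, 2.41% of those listed, led cluster 2. The clusters were drawn from the same values, so a lead is a description and not a test. The largest lead was 1.74, for Dbi (chr1:120113280-120121096, GRCm38), which encodes an acyl-CoA binding protein that also acts on GABA receptors, at 2.92 and 2.74 against 1.00 in cluster 5. Mt3 (chr8:94152607-94154148), Clu (chr14:65968483-65981548) and Npas3 (chr12:53248026-54072173) followed among genes known from astrocytes, with leads of 1.59, 1.48 and 1.35. Magi2 (chr5:19219387-20704792), a synaptic scaffold, led by 1.44. The neurotrophin receptor Ntrk2, whose truncated form is abundant in astrocytes, led by 1.09, and the calcium channel Trpm3, found in ependymal and choroid plexus cells, by 1.03. Lbp, which binds bacterial lipopolysaccharide, led by 1.18, the secreted protein Mia by 1.19, and the imprinted proteolipid Nnat by 1.15. The remaining genes among the 20 with the largest lead were Cfap299, Agbl4, Calml4, Ecrg4, Kcnip4, 1700094D03Rik, Mns1, Rsph1, Tmem212 and Fam183b, with leads of 1.01 to 1.14. Rsph1 is a radial spoke head protein, Mns1 a protein of the axoneme and Agbl4 an enzyme that trims glutamates from tubulin.

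**Figure D2:**
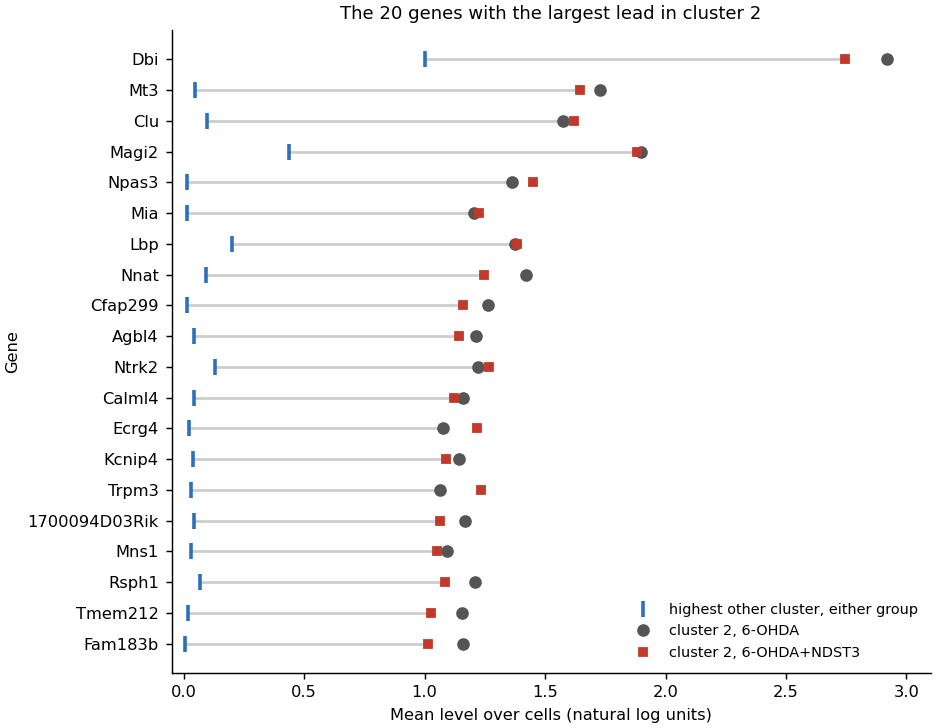
Mean level over cells, in natural log units, of the 20 genes with the largest lead in cluster 2. Grey circles and red squares are cluster 2 in the 6-OHDA and 6-OHDA+NDST3 libraries, and the blue bar is the highest level in any other cluster and group. Both cluster 2 values lie above 1 for all 20 genes, and the highest other level is below 0.5 for all except Dbi, at 1.00.

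Ciliary genes were among the lead genes. Of 82 listed genes whose symbols begin with Cfap, Dnah, Rsph, Ift, Dnaaf, Dnai or Tekt, a family set up after the values were seen, 75 were detected, 75 were highest in cluster 2 and 49 led it. Examples are Cfap54 at 1.09 and 0.931, the axonemal dynein heavy chain Dnah12 at 0.887 and 0.827 and the dynein light chain Dynlrb2, outside the family, at 1.02 and 0.932. By comparison 11 lead genes were in the astrocyte list, 10 in the ependymal list and 4 in the choroid plexus list, and 520 were in no list or family. None of the ribosomal protein, immediate early, interferon, complement or histocompatibility genes led cluster 2.

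The promoters of these genes were searched for GTTGCC, the core of the X-box that ciliary RFX transcription factors bind, on both strands of the 250 bases before the annotated start (RefSeq, GRCm38.p6). The motif was chosen after the lead genes were known. It was in 10.4% of 32851 annotated mouse promoters, in 17.98% of the 645 promoters found for 496 lead genes, and in 31.8% of the 44 promoters of 40 ciliary family lead genes; outside that family the share was 17.0%. ACAATG, a letter string of SOX-type sites searched the same way, was in 10.7% of all promoters and 7.60% of those of lead genes. A match is a description of letters and not of binding. Among the 20 genes with the largest lead, promoters were found for 16. The 3 sequences below are shown because they are those of these promoters with a GTTGCC match. Capitals mark the match or its reverse complement, GGCAAC.
1700094D03Rik, chr3:90062558-90062807, plus strand: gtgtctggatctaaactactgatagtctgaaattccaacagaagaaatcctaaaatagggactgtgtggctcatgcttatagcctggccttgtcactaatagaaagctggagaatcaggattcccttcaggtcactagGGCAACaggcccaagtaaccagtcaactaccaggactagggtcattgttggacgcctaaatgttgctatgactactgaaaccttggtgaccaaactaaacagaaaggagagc
Mns1, chr9:72438279-72438528, plus strand: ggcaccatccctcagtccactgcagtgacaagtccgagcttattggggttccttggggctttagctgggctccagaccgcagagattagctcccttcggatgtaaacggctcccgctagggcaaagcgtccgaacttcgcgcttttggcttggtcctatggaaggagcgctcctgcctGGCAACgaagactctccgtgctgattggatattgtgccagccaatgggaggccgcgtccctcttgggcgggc
Fam183b, chr11:58801961-58802210, minus strand: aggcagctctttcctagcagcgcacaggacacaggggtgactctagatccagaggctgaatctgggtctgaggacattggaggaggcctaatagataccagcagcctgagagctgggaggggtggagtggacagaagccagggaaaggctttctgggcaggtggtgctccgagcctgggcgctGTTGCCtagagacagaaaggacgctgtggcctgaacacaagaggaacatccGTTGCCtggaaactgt
The match lies 112 bases before the start in 1700094D03Rik and 72 in Mns1, and Fam183b has 2, at 67 and 16 bases. The stretches shown for Mns1 and Fam183b lie inside their gene spans (chr9:72437821-72458581 and chr11:58783892-58802221), so the start used there is an internal one.

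The lead genes were also long. Of the 631 lead genes with an annotated span, the median was 54.9 kb and 23.6% (149 genes) exceeded 200 kb. Of the 9671 genes detected in cluster 2 with a span, the median was 29.8 kb and 8.13% exceeded 200 kb. Magi2 spans 1485 kb, the carboxypeptidase gene Agbl4 1267 kb, Npas3 824 kb and the ciliary gene Cfap299 473 kb. Mt3, by contrast, spans 1.54 kb and Dbi 7.82 kb.

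Astrocyte functions were covered unevenly, and the counts below stand beside 8669 of 26624 genes highest in cluster 2 under the looser rule. In the list for gap junctions, water and potassium, 8 of 12 genes were highest in cluster 2: the bicarbonate transporter Slc4a4 was at 1.01 and 1.17, the potassium channel Kcnj10 at 0.530 and 0.469 and Mlc1, the protein of megalencephalic leukoencephalopathy, at 0.679 and 0.700. The sodium pump subunit Atp1b2 was higher in cluster 5, at up to 1.04. In the glutamate list 4 of 12 were highest here, among them Slc1a2, the GABA transporter Slc6a11 (0.214 and 0.229) and the GABA transaminase Abat (0.395 and 0.490). Glutamine synthetase (Glul), at 0.928 and 1.05, reached 1.64 in cluster 7, and the transporter Slc1a3, at 0.608 and 0.588, reached 0.708 in cluster 6. Of 15 genes of glycolysis, glycogen and lactate, 4 were highest here, including the lactate dehydrogenase subunit Ldhb at 1.10 and 1.11. In the lipid list, 7 of 14 were highest, led by Clu, the desaturase Scd2 (1.34 and 1.51) and prostaglandin D synthase Ptgds (0.960 and 1.24). Apolipoprotein E, at 3.59 and 3.38, was higher in cluster 3.

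Most glial regulators were highest in cluster 2, where 8669 of 26624 genes were highest under the looser rule. Of 19 glial transcription factors, 13 were highest in cluster 2, with the gliogenic factors Sox9 at 0.955 and 0.990, Nfia at 1.64 and 1.81 and Nfix at 1.35 and 1.28. The oligodendrocyte factors Olig2 and Sox10 were also highest here but low, at 0.0515 and 0.0491 and at 0.0678 and 0.0857. Among 23 genes of Notch, BMP, FGF and Wnt signalling, 9 were highest here, with the FGF receptor Fgfr2 at 0.901 and 0.8496 and the BMP receptor Bmpr1b at 0.423 and 0.475. Of 14 synapse factors of astrocytes, 7 were highest here, among them the neuroligin Nlgn1 and the glypican Gpc5 (0.624 and 0.600), while Sparcl1, at 1.15 and 1.13, reached 3.52 in cluster 5.

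Genes of heparan sulfate, the polymer that NDST enzymes modify, were counted by the same rule. Of 23 enzymes and core proteins, 19 were detected and 7 were highest in cluster 2, led by the sulfatase Sulf1 (0.444 and 0.483) and Gpc5. That count is near the 8669 of 26624 genes highest here under the looser rule and does not set the list apart. Mouse Ndst3 was at 0.150 and 0.0954, below cluster 5 at up to 0.722, and Ndst4 was listed at 0 in both groups. The AAV carries the human gene, so these mouse values do not measure the transgene.

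Reactive astrocyte genes, trophic factors and antioxidant genes were counted by the same rule, beside 8669 of 26624 genes highest here under the looser rule. Of 13 pan-reactive genes, 4 were highest in cluster 2 (Gfap, Timp1, Serpina3n and Aspg), and the highest of these 4 was Timp1 at 0.196 and 0.197. Vimentin (Vim), at 1.547 and 1.44, was higher in cluster 5. None of the 13 A1-type genes and 3 of the 12 A2-type genes were highest here. Of 14 trophic factors, 4 were highest in cluster 2, led by Manf (1.12 and 1.05) and midkine (Mdk, 0.526 and 0.497), whereas Gdnf was at 0.0116 and 0.0100. Of 18 antioxidant genes, 6 were highest here, with the glutathione transferases Gstm1 at 1.13 and 1.30 and Gstm5 at 0.802 and 0.891.

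NDST3 treatment was next compared with the lesion alone within cluster 2. The difference, 6-OHDA+NDST3 minus 6-OHDA, had a median of 0.00390 and an SD across genes of 0.0573 natural log units over the 9817 detected genes, of which 53.0% were higher with NDST3. At a size rule of 0.25, 12 genes (0.122% of those detected) were higher and 16 (0.163%) were lower, and none differed by 0.5 or more. In the other clusters the same rule gave 7 to 166 higher and 9 to 195 lower genes. The 641 lead genes did not shift together: 335 were higher and 306 lower, with a median of 0.00387, and only Nlgn1, Ptgds and B3galt1 passed the size rule. Without replicates it is not known which of these differences exceed the spread between animals.

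The genes that were higher with NDST3 had several roles. Cd74, the invariant chain of MHC class II, went from 0.316 in the 6-OHDA group to 0.692, a difference of 0.376; it was also higher in all other clusters, by 0.151 to 2.04. The class I gene H2-D1 was higher by 0.257, and by 0.0170 to 0.580 in the other clusters. The 15 genes were picked for their difference in cluster 2, which favours a place above the other clusters. No such count was made for the largest differences of another cluster. With that limit, 9 of the 15 largest positive differences lay above the range of the other 8 clusters. Among them were Col25a1, a transmembrane collagen, at 0.202 and then 0.507, and Nlgn1, an adhesion protein of synapses, at 0.719 and then 1.01; the other clusters differed by at most 0.00864 and 0.0213. Ptgds went from 0.960 to 1.24, the lipid phosphatase Plpp3 from 0.997 to 1.27 and the galactosyltransferase B3galt1 from 0.676 to 0.938. The amino acid transporter Slc38a2 was higher by 0.274, the actin-severing protein Gsn by 0.255 and Id3, an inhibitor of helix-loop-helix factors, by 0.247. The 15 were completed by the splicing factor Srsf5 (0.252), Mllt3 (0.243) and 3 mitochondrial transcripts, of which mt-Nd1 (0.247), like Id3 and Mllt3, lay just under the size rule.

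Most of the lower genes are known from myeloid cells. Lysozyme 2 (Lyz2) went from 0.880 to 0.415, osteopontin (Spp1) from 0.793 to 0.387, and the complement subunits C1qa and C1qb were lower, with differences of -0.392 and -0.266. Tyrobp (-0.284) and Fcer1g (-0.259), signalling adaptors of myeloid receptors, the lysosomal protease Ctsd (-0.342) and Apoc1 (-0.270) were lower as well. All of these had a higher level in another cluster, for example 3.84 for Lyz2 and 4.01 for C1qa in cluster 3. Beside them, all 8 of 8 microglia markers were lower with NDST3, and their summed level went from 2.09 to 1.33. That of the 7 monocyte or macrophage markers went from 0.927 to 0.446, with Cd163 and F13a1 at 0 in both groups. The 7 endothelial and 5 erythroid markers were all lower too, and T cell markers were higher in 7 of 8, although 0 of these 8 were detected. Many other clusters had list medians of the same sign. These were below 0 in 7 of 8 for the endothelial and erythroid lists and in 6 of 8 for the microglia list. For the T cell list they were above 0 in 8 of 8, and for the monocyte or macrophage list below 0 in only 2 of 8. The part of myeloid cells or of free RNA in these differences was not tested. Lyz2, Spp1, Tyrobp and Apoc1 were lower in all other clusters, whereas C1qa and C1qb were lower in 4 of 8.

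The other lower genes had several roles. The chaperones Hspa8 (2.43 and then 2.13), Hspe1 (1.28 and then 0.982) and Hsp90ab1 (3.11 and then 2.85) were lower with NDST3. The AP-1 subunit Junb went from 1.25 to 0.990, below the range of the other clusters, which ran from -0.0404 to 0.461. Tmsb4x, which binds actin monomers, differed by -0.453, and Cd83, a membrane protein of activated immune cells, by -0.336.

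**Figure D3:**
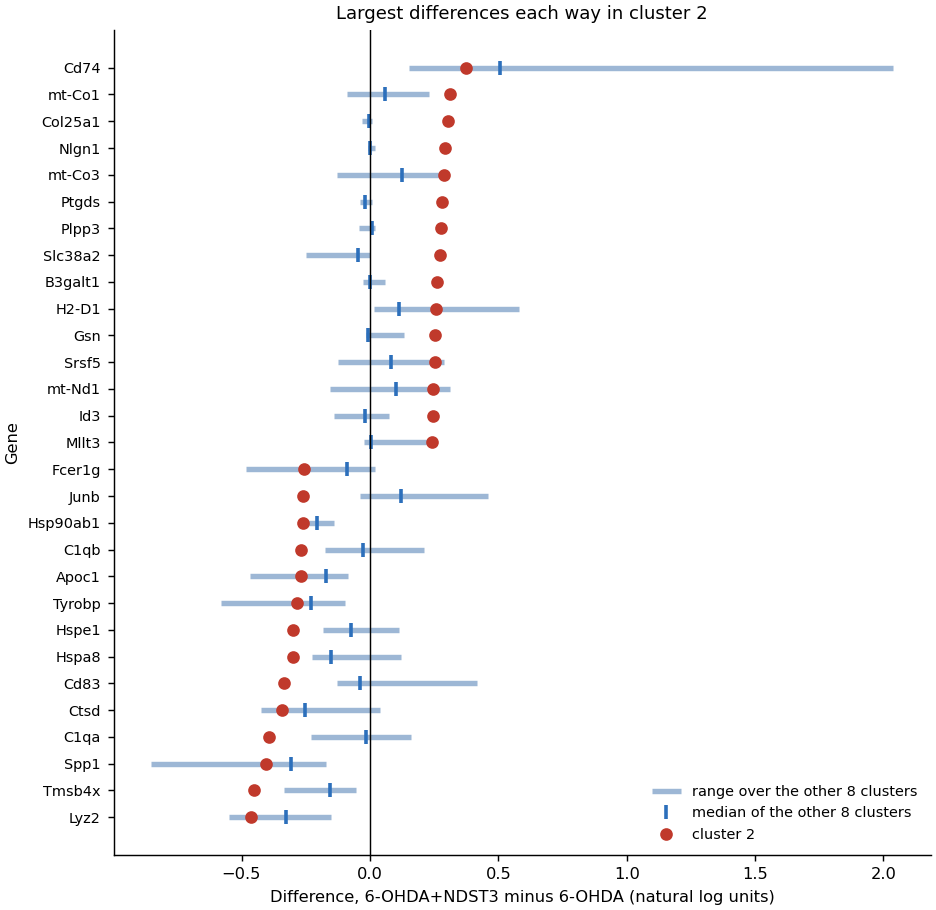
Difference between the 6-OHDA+NDST3 and 6-OHDA libraries, in natural log units, for genes among the 15 with the largest positive and the 15 with the largest negative difference in cluster 2. Red circles are cluster 2, blue bars the range and blue ticks the median over the other 8 clusters. Cluster 2 lies outside the range of the others for Col25a1, Nlgn1, Ptgds, C1qa and Junb, among others, and inside it for Cd74, H2-D1, Lyz2 and Spp1. The genes were picked for their difference in cluster 2, which favours a place outside that range.

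Lists of genes were compared in the same way. Of 13 transcripts of the mitochondrial genome, 11 were higher with NDST3, with a median difference of 0.209 against 0.00390 over all detected genes; the cytochrome oxidase subunit mt-Co1 went from 3.81 to 4.12. The same median ran from -0.0727 to 0.230 in the other clusters. The authors had removed cells with more than 10% mitochondrial reads, and the share per cell is not in the table. Of 11 MHC genes, 10 were higher, with a median of 0.146, within the 0.0404 to 0.519 of the other clusters. Class II genes such as H2-Ab1, at 0.0762 and then 0.298, are most abundant in cluster 9, where H2-Ab1 reached 3.25.

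Immediate early genes, induced within minutes of cell stimulation or dissociation, were lower in 12 of 15 cases, with a median of -0.0956; the medians of the other clusters ran from -0.0964 to 0.172. Heat shock and unfolded protein genes were lower in 12 of 13, with a median of -0.0967, and all 8 other clusters also had a negative median. Of 82 cytosolic ribosomal protein genes, 69 were lower, with a median of -0.0607, within the -0.135 to 0.132 of the other clusters. Complement genes were lower in 10 of 11. Interferon-stimulated genes were split, with 9 higher and 7 lower, and so were the 12 cell cycle genes, with 6 each way.

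The neuroectodermal lists had medians on both sides of 0. Of the 12 ependymal markers, 11 were lower with NDST3, with a median of -0.0795: Cfap54 went from 1.09 to 0.931, the coiled-coil protein Ccdc153 from 0.915 to 0.775 and Tmem212 from 1.16 to 1.03. In the wider ciliary family of 82 genes, 35 were higher and 46 lower, with a median of -0.00852. Of the 20 astrocyte markers, 15 were higher, with a median of 0.0484: Slc4a4 went from 1.01 to 1.17, Slc1a2 from 0.509 to 0.627 and Ndrg2 from 0.813 to 0.965. None of these markers passed the size rule. Oligodendrocyte markers had a median of 0.0196, precursor markers -0.0168, choroid plexus markers 0.0290 and neuron markers -0.00936. Pan-reactive genes had a median of -0.00235, A1-type genes 0.0216 and A2-type genes 0.00361. A change in the mix of cells and a change within cells cannot be told apart in these means.

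RNA-seq of brain tissue gives a second reading of the lead genes, in other libraries and with a sham group. Total counts ranged from 51003699 to 70533326 per library. The labels do not say whether the libraries of a group came from separate animals, so p-values measure only the spread between these libraries. The quasi-likelihood test of edgeR was fitted to all 5 libraries, and genes were called at a p under 0.05 after adjustment by Benjamini and Hochberg. Levels are given as CPM, the count scaled to library size; the first 2 comparisons below share the single 6-OHDA library, whose spread is taken from the other groups. As a check of the lesion, Th was at 115 and 135 CPM in sham, 2.15 after 6-OHDA and 11.5 and 8.03 after 6-OHDA+NDST3. The log2 fold change of Th was -5.86 ± 0.33 (SE, adjusted p = 0.00823) in the lesion against sham and 2.18 ± 0.29 (SE, adjusted p = 0.0320) with NDST3 against the lesion. Mouse Ndst3, which does not report the human transgene, was at 14.1 and 21.0 CPM in sham, 7.96 after 6-OHDA and 23.3 and 13.5 after 6-OHDA+NDST3 and was not called in any comparison.

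Of the 641 lead genes, 624 were listed in the RNA-seq table and all of these passed the filter on low counts. In the lesion against sham, 94 rose (15.1%, against 18.8% of all 19300 genes tested) and 144 fell (23.1%, against 17.1%; either way, 35.8% of all genes were called), with a median log2 fold change of -0.03. Without sham replicate 1 or without sham replicate 2, no lead gene was called in edgeR's test in either comparison with the 6-OHDA library (265 and 212 of them had an unadjusted p under 0.05 in the lesion against sham), while DESeq2 on all 5 libraries called 283 in the lesion. Dbi was at 183 and 134 CPM in sham, 624 after 6-OHDA and 245 and 328 after 6-OHDA+NDST3; it rose in the lesion by 1.98 ± 0.25 (SE, adjusted p = 0.00881) on the log2 scale and fell with NDST3, -1.12 ± 0.25 (SE, adjusted p = 0.0478). Clu rose by 1.04 ± 0.19 (SE, adjusted p = 0.0160) and Mt3 by 0.82 ± 0.11 (SE, adjusted p = 0.00963) in the lesion. Among the other marker genes, Sox2 rose by 1.07 ± 0.16 (SE, adjusted p = 0.0106) and Aqp4 by 2.24 ± 0.33 (SE, adjusted p = 0.0103), while S100b (0.47, adjusted p = 0.113) and Ndrg2 (-0.21, adjusted p = 0.315) did not pass the test.

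The 5 lead genes with the largest rise in the lesion were Cnmd, Ecrg4, Gm5089, Slc47a1 and Nuf2. Slc47a1, an exporter of organic cations found in the leptomeninges, was at 6.00 and 5.03 CPM in sham, 38.3 after 6-OHDA and 3.68 and 3.79 after 6-OHDA+NDST3. The 6-OHDA library stood above all 4 others, and the rise was 2.80 ± 0.17 (SE, adjusted p = 0.00823) on the log2 scale. Nuf2, a kinetochore protein of dividing cells, was at 1.01 and 0.797 CPM in sham, 5.98 after 6-OHDA and 2.87 and 3.92 after 6-OHDA+NDST3 and rose by 2.73 ± 0.33 (SE, adjusted p = 0.00865). Ecrg4, a secreted peptide precursor of the choroid plexus, was at 3.18 and 0.840 CPM in sham, 16.7 after 6-OHDA and 4.35 and 11.5 after 6-OHDA+NDST3, and its rise of 3.07 ± 0.87 (SE, adjusted p = 0.0480) was larger than the difference between the sham libraries. Cnmd rose by 3.38 ± 0.81 (SE, adjusted p = 0.0320), although 6-OHDA+NDST3 replicate 2 was above the 6-OHDA library, and Gm5089 rose by 2.81 ± 0.74 (SE, adjusted p = 0.0404).

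The 5 with the largest fall were Ankfn1, T2, Lrrc6, Vwa5b1 and Vit. Ankfn1 was at 4.56 and 8.34 CPM in sham, 0.697 after 6-OHDA and 7.78 and 5.18 after 6-OHDA+NDST3; the 6-OHDA library lay below all others, and the change was -3.21 ± 0.57 (SE, adjusted p = 0.0148). T2 was at 8.08 and 6.18 CPM in sham, 1.14 after 6-OHDA and 4.57 and 3.50 after 6-OHDA+NDST3, a change of -2.64 ± 0.36 (SE, adjusted p = 0.00936). Lrrc6, an assembly factor of ciliary dynein arms, changed by -2.49 ± 0.54 (SE, adjusted p = 0.0242) and Vwa5b1 by -2.15 ± 0.41 (SE, adjusted p = 0.0178). Vit, the extracellular protein vitrin, was at 5.397 and 5.08 CPM in sham, 1.30 after 6-OHDA and 5.12 and 4.26 after 6-OHDA+NDST3, and changed by -2.01 ± 0.29 (SE, adjusted p = 0.0100). For all 5 genes the 6-OHDA library was the lowest of the 5 libraries, and the sham and 6-OHDA+NDST3 values overlapped for each gene but T2, which was lower with NDST3 than in sham.

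With NDST3 against the lesion, 107 lead genes rose (17.1%, against 9.06% of all genes tested) and 34 fell (5.45%, against 6.59%; either way, 15.6% of all genes were called), with a median log2 fold change of 0.34 against 0.00 over all genes. No lead gene was called without 6-OHDA+NDST3 replicate 1, without either sham replicate, or in a fit of these 2 groups alone, although 233 to 266 of them had an unadjusted p under 0.05 in those fits; without 6-OHDA+NDST3 replicate 2 the counts were 100 and 42. DESeq2 called 175 higher and 60 lower. The 5 largest rises were in Stoml3, Dpy19l2, Ccdc153, Dnah3 and Ankfn1. Stoml3, a stomatin-like protein of cilia and sensory neurons, was at 1.01 and 0.434 CPM in sham, 0.155 after 6-OHDA and 2.81 and 3.23 after 6-OHDA+NDST3. The NDST3 libraries were the highest and the 6-OHDA library the lowest, and the rise was 4.27 ± 0.74 (SE, adjusted p = 0.0361). Ccdc153, an ependymal marker, was at 2.446 and 1.13 CPM in sham, 0.678 after 6-OHDA and 6.72 and 8.26 after 6-OHDA+NDST3, and rose by 3.46 ± 0.61 (SE, adjusted p = 0.0365). Dpy19l2, needed for the sperm head, rose by 3.50 ± 0.55 (SE, adjusted p = 0.0340) and the dynein heavy chain Dnah3 by 3.23 ± 0.59 (SE, adjusted p = 0.0372). For these 4 genes the counts in the 6-OHDA library were 5 to 35 reads.

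The 5 largest falls with NDST3 were in Slc47a1, Slc26a7, Col12a1, Igfbp6 and Ccn3. The log2 fold change of Slc47a1 was -3.36 ± 0.18 (SE, adjusted p = 0.0320). Col12a1, a fibril-associated collagen, was at 13.7 and 11.8 CPM in sham, 64.9 after 6-OHDA and 12.6 and 10.3 after 6-OHDA+NDST3; it rose in the lesion by 2.35 ± 0.18 (SE, adjusted p = 0.00823) and fell with NDST3, -2.51 ± 0.18 (SE, adjusted p = 0.0320). It was -2.56 ± 0.29 (SE, adjusted p = 0.0320) for the anion exchanger Slc26a7, -2.47 ± 0.32 (SE, adjusted p = 0.0320) for Igfbp6, which binds insulin-like growth factors, and -2.40 ± 0.27 (SE, adjusted p = 0.0320) for the matrix protein Ccn3. In all 5 the 6-OHDA library was above the other 4 libraries. Of the 7 fibroblast markers, 6 rose in the lesion and 6 fell with NDST3, and their summed level was 445 and 252 CPM in sham, 1372 in the 6-OHDA library and 221 and 294 with NDST3. The 5 erythroid genes, among which the globin copies may share reads, rose in the lesion and fell with NDST3 as well. The part of these cells in the changes was not tested.

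**Figure D4:**
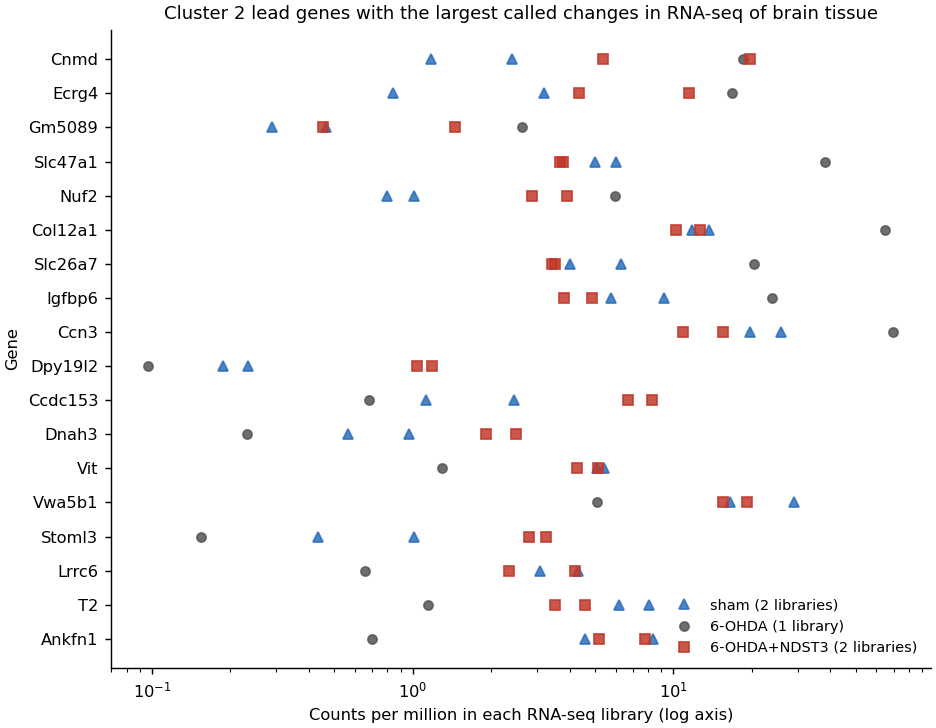
CPM in each RNA-seq library, on a log axis, of the 18 lead genes with the largest called changes in the lesion or with NDST3. Blue triangles are the 2 sham libraries, the grey circle the 6-OHDA library and red squares the 2 6-OHDA+NDST3 libraries. The 6-OHDA library is the lowest of the 5 for Ankfn1, Stoml3 and Ccdc153 and the highest for Slc47a1 and Col12a1.

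NDST3 against sham gave no called lead gene and no called gene at all in edgeR's test (0 of 624 lead genes, 0% of all genes tested), while 200 lead genes and 2744 genes in all had an unadjusted p under 0.05. DESeq2 called 76 lead genes higher and 5 lower, and 1048 genes in all. Without 6-OHDA+NDST3 replicate 1, edgeR called 2 lead genes and 111 genes in all. The median log2 fold change of the lead genes was 0.12.

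The share of calls among lead genes differed with gene span. Of 148 tested lead genes over 200 kb, 65 fell (43.9%) and 7 rose in the lesion, and 41 rose (27.7%) and 2 fell with NDST3. Of 473 shorter ones, 16.7% fell and 18.4% rose in the lesion, and 14.0% rose and 6.77% fell with NDST3. Of all 17818 tested genes of at most 200 kb, 16.1% fell and 19.6% rose in the lesion. With NDST3, 8.45% of these rose and 6.85% fell. For long genes the shares were similar over all genes: of all 968 tested genes over 200 kb, 39.5% fell in the lesion and 23.7% rose with NDST3. Agbl4 was at 12.02 and 15.02 CPM in sham, 3.62 after 6-OHDA and 12.04 and 11.1 after 6-OHDA+NDST3; it fell in the lesion, -1.90 ± 0.23 (SE, adjusted p = 0.00850), and rose with NDST3 by 1.67 ± 0.23 (SE, adjusted p = 0.0320). Neurexin 3 (Nrxn3), a presynaptic adhesion protein that leads cluster 2, changed by -1.22 ± 0.17 (SE, adjusted p = 0.00964) in the lesion. Beside these, 15 of 16 neuron markers fell in the lesion and 9 rose with NDST3, and their summed level was 9009 and 9641, then 3641, then 7678 and 6767 CPM in the sham, 6-OHDA and 6-OHDA+NDST3 libraries. The part of neurons in the calls of long genes was not tested.

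**Figure D5:**
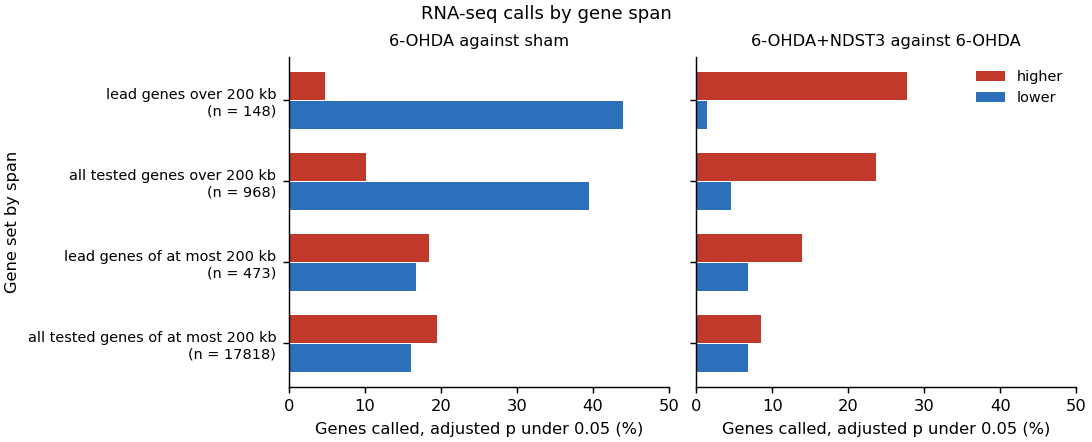
Share of genes called higher (red) or lower (blue) by edgeR at an adjusted p under 0.05, in percent, for cluster 2 lead genes and all tested genes, split at a span of 200 kb. In the lesion 43.9% of the long lead genes and 39.5% of all long genes were lower, and with NDST3 27.7% and 23.7% were higher.

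The marker lists of cluster 2 also differed among themselves in the tissue. Of 20 astrocyte markers, 9 rose and 2 (Aldoc and Slc7a10) fell in the lesion, and 1 (Mt3) fell with NDST3; of all genes tested, 18.8% rose and 17.1% fell in the lesion and 9.06% rose and 6.59% fell with NDST3. Gfap, low in cluster 2, was at 1246 and 572 CPM in sham, 6237 after 6-OHDA and 2136 and 3052 after 6-OHDA+NDST3, and rose in the lesion by 2.78 ± 0.48 (SE, adjusted p = 0.0144). Of the ependymal markers, 1 (Foxj1) rose in the lesion, by 1.25 ± 0.17 (SE, adjusted p = 0.00918), and 3 of 12 (Ccdc153, Tmem212 and Cfap54) rose with NDST3, which is 25% against 9.06% of all genes; the list's median log2 fold changes were 0.05 and 0.98. The summed level of the list was 61.3 and 41.1 CPM in sham, 102 after 6-OHDA and 92.0 and 108 after 6-OHDA+NDST3, so in the sum the 6-OHDA library lay between the NDST3 libraries and above sham. Tmem212 rose with NDST3 by 2.55 ± 0.49 (SE, adjusted p = 0.0398) in the tissue, while its mean in cluster 2 was lower with NDST3. Of the 48 tested lead genes of the ciliary family, 7 rose with NDST3 (14.6%, against 9.06% of all genes and 17.1% of all tested lead genes). Their median log2 fold change was 0.64, against 0.34 over all tested lead genes.

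A single library decided the choroid plexus values. Ttr was at 30.2 and 3.04 CPM in sham, 24.0 after 6-OHDA and 2.30 and 1028 after 6-OHDA+NDST3, and its log2 fold change with NDST3, 4.42 (adjusted p = 0.387), did not pass the test. Enpp2 was at 487 and 433 CPM in sham, 420.3 after 6-OHDA and 449.6 and 968 after 6-OHDA+NDST3 and Folr1 at 1.13 and 0.290 CPM in sham, 2.40 after 6-OHDA and 1.21 and 13.1 after 6-OHDA+NDST3, so 6-OHDA+NDST3 replicate 2 held the highest value of all 3 genes while the values of 6-OHDA+NDST3 replicate 1 were near or below those of sham. The list summed to between 581 and 1226 CPM in the other 4 libraries and to 2369.7 in this one. The counts of the other lists stand beside 18.8% of all genes higher and 17.1% lower in the lesion, and 6.59% lower with NDST3. Oligodendrocyte markers rose in 4 of 16 cases in the lesion and fell in 2 with NDST3 (Cldn11 and Olig1), and precursor markers rose in 6 of 9. Pan-reactive genes rose in 12 of 13, A1-type genes in 11 of 12, A2-type genes in 11 of 12 and glial transcription factors in 13 of 19, with 6 falling with NDST3. Of the gap junction, water and potassium list, 5 of 12 rose, whereas in the glutamate list 3 rose and 5 of 12 fell.

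The genes that differed within cluster 2 were read in the tissue as well. Of the 16 genes that were lower with NDST3 in cluster 2, all were tested, 13 rose in the lesion (against 18.8% of all genes) and 2 fell with NDST3 (against 6.59%). The latter were Tmsb4x, with a log2 fold change of -1.18 ± 0.21 (SE, adjusted p = 0.0363), and Junb, with -1.13 ± 0.19 (SE, adjusted p = 0.0361). Spp1 was at 177 and 97.5 CPM in sham, 1838 after 6-OHDA and 746 and 772 after 6-OHDA+NDST3, and C1qa at 85.3 and 47.5 CPM in sham, 1025 after 6-OHDA and 312 and 425 after 6-OHDA+NDST3; their log2 fold changes with NDST3, -1.28 (adjusted p = 0.0642) and -1.48 (adjusted p = 0.0568), did not pass the test. Of the 12 that were higher with NDST3, 10 were tested: B3galt1 rose in the tissue by 0.67 ± 0.12 (SE, adjusted p = 0.0366), Gsn fell, -0.90 ± 0.19 (SE, adjusted p = 0.0445), and Cd74 was at 24.6 and 9.79 CPM in sham, 192 after 6-OHDA and 34.9 and 132 after 6-OHDA+NDST3. The log2 fold change of Cd74 with NDST3, -1.20 (adjusted p = 0.350), did not pass the test. Of the 11 MHC genes, 10 of which were higher with NDST3 in cluster 2, 10 rose in the lesion, with a median log2 fold change of 2.57. With NDST3 2 of them (B2m and Tapbp) fell and none rose, with a median of -1.04, so the tissue median and the cluster 2 median differed in sign. Nlgn1 (0.45, adjusted p = 0.171) and Col25a1 (0.95, adjusted p = 0.107) did not pass the test.

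Chromatin tables were read only at the gene names that they give. A region of H3K27 acetylation, a mark of active promoters and enhancers, was assigned to 238 lead genes (37.1%), against 47.1% of the genes detected in cluster 2, and an ATAC-seq region of open chromatin to 76 (11.9%), against 11.6%. The median log2 ratio of H3K27ac signal over the 367 regions at lead genes was 0.12 in the lesion over sham and 0.38 with NDST3 over the lesion, against 0.13 and 0.39 over all regions. For ATAC-seq the medians at lead genes were 0.10 and 0.07, against 0.11 and 0.11. The deposited signal is 1 column per group, so these ratios have no replicate error and were not tested.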

How the data were processed

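The tables that the authors deposited for RNA-seq, scRNA-seq, H3K27ac CUT&RUN and ATAC-seq were used. RNA-seq libraries were stranded, and the table deposited by the authors holds a read count per gene (Trimmomatic, HISAT2 and StringTie), for genes with at least 1 count in every library; FPKM and TPM values that the authors deposited beside the counts were not tested. The authors deposited for scRNA-seq 1 mean per gene, cluster and group, which the header calls a mean count and whose values fit the natural log of 1 plus counts scaled to 10000 per cell, made with Cell Ranger on mm10 and Seurat (cells with 200 to 8000 genes and at most 10% mitochondrial reads). CUT&RUN and ATAC-seq tables deposited by the authors hold a signal per region and group whose normalization is not given in the sources used here, the replicates of CUT&RUN being pooled in 1 column; the coordinates there could not be matched to the stated build, so regions were joined by gene name only, those under 1 in any group were left out and ratios used a pseudocount of 1. Columns of the authors' own comparisons were not used. The submitters' processing notes name bcl2fastq, Trim Galore, Bowtie and Cell Ranger.

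Of 26650 scRNA-seq rows, 26 whose symbols a spreadsheet had turned into dates were dropped. Doublets were limited only by the authors' upper bound on genes per cell. Counts were fitted with edgeR 4.0.16 in R 4.3.3 (TMM factors, filterByExpr, quasi-likelihood test, Benjamini-Hochberg adjustment) over all 5 libraries with 2 residual degrees of freedom; the test was checked on simulated counts. SEs were derived from the fold change and the F statistic. Alternatives were other scaling factors, no filter, only the groups compared, a replicate block, leaving out each replicate, DESeq2 1.42.0 and other thresholds. Gene spans and promoters came from RefSeq tables of GRCm38.p6, matched by symbol. A span was found for 98.4% of lead genes, and promoters for 496 of the 641. Named genes were those of the lists, the 20 largest leads, the 15 largest differences each way in cluster 2, and the 5 largest called changes each way among lead genes in each RNA-seq comparison. The members, lists and rules were chosen with earlier results of these data known, and the symbol families and promoter motifs after the values were seen. A few genes of the lists and named sets are counted but not reported here by name.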

Additional observations from a re-analysis of the deposited data

How the results depend on the processing

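Leads and differences depended on the thresholds. At least 0.1 gave 1528 lead genes and at least 0.5 gave 208, and the gap to the median of the other clusters gave 1596. Within cluster 2, at least 0.1 gave 367 higher and 347 lower genes and at least 0.5 gave 0 and 0; means transformed back to counts, with a log2 ratio of at least 0.5, gave 201 and 207. Other detection limits and centring kept both counts within 1.5 times.

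In RNA-seq, lead genes defined at 0.5 gave 32 higher and 36 lower in the lesion and 29 and 8 with NDST3 against the lesion; those defined at 0.1 gave 194 and 399, and 261 and 82. DESeq2 gave 175 and 60 with NDST3 against the lesion and 76 and 5 against sham. A fit of only the 2 groups compared gave 0 and 0 with NDST3 against the lesion, with fewer libraries to estimate the spread. Leaving out 1 replicate gave 0 to 99 higher and 0 to 155 lower lead genes in the lesion, 0 to 100 and 0 to 42 with NDST3 against the lesion, and 0 to 2 and 0 with NDST3 against sham; the 6-OHDA library cannot be left out. The replicate block gave 28 and 31 in the lesion and 0 and 0 with NDST3 against the lesion, and changed no count against sham. Same-numbered replicates deviated in opposite directions (r = -0.326), so the pairing was also crossed, chosen after seeing the data: the replicate block with crossed numbers gave 109 and 173, 178 and 56, and 102 and 6. Of the calls of single named genes, none reversed and 117 fits across these settings lost one. The cause of these changes was not tested.

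The scRNA-seq means have no replicate, cell number or depth, so a difference cannot be set against an error, and genes spread over several cell types share 1 mean. In RNA-seq the single 6-OHDA library enters both lesion comparisons.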
